A study of Mus musculus with 10 samples.

Results

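The genes described here encode the endosomal sorting complexes required for transport (ESCRT) of the mouse, chosen as a list of 32 genes by their known roles, among which Vps37d had been selected by the study on the halofantrine comparison in these same libraries. Of the 32 genes, 31 were listed among the 11702 genes of the deposited gene table, and Chmp4c was not. The question asked of them was whether Vps37d moved alone or with its paralogs and partners. ESCRT proteins work in sequence on the endosome. ESCRT-0 gathers ubiquitinated membrane proteins, ESCRT-I and ESCRT-II deform the membrane around them, and ESCRT-III filaments with the VPS4 ATPase cut the vesicle off into the lumen, from where the cargo reaches the lysosome. The same machinery seals nuclear and plasma membranes, and in the retina endosomal sorting serves cells with a heavy membrane traffic such as the photoreceptors.

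Bulk polyA RNA was measured in 10 retina libraries of female mice. The groups were WT mice injected with DMSO (4 libraries, W1 to W4), rd10 mice injected with DMSO (3 libraries, D1 to D3) and rd10 mice injected with halofantrine, an antimalarial drug written HAL in the labels (3 libraries, H1 to H3). The rd10 mice were of strain B6.CXB1-Pde6brd10/J and carry a mutation of Pde6b, a subunit of the rod phosphodiesterase, after which rods die and cones follow. The strain of the WT mice was not given in the sources used here. At postnatal days P10 and P24 each mouse received 1 μL of DMSO or of 20 μM halofantrine into the vitreous, and its retinas were taken at P36. The labels name 2 batches, of which batch 1 held W1 to W4, D1, D2 and H1 and batch 2 held D3, H2 and H3, so that every WT library belonged to batch 1. The sample titles also carry set names, set1 for W1 to W3, set1_5 for W4, set2 for D1, D2 and H1, final for D3 and last for H2 and H3. Genotype and set cannot be told apart within batch 1, nor can treatment and set name within batch 2. The labels number separate samples and do not say how many retinas or animals went into each, so p-values measure the spread between these samples.

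The libraries held 15512212 to 38160436 estimated counts on genes, and the lowest count of any listed member in any library was 81. The 9 rod markers (Gnat1, Pde6a, Nrl and others) summed to between 32597 and 34750 CPM (counts scaled to a common library total) in W1 to W3, to 2221, 2292 and 5738 in D1, D2 and D3, and to 2099, 5142 and 4047 in H1, H2 and H3. The library labelled WT W4 had 1591, below every rd10 library, and its 6 gliosis markers summed to 618 CPM against 77.9 to 87.1 in W1 to W3 and 650 to 857 in the rd10 libraries. Its label therefore goes against its rod genes, and comparisons with WT are given with and without it. In bulk retina, fewer cells of a type and less RNA per cell cannot be told apart.

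Promoters, taken as 250 bases before to 50 after an annotated start, were matched by symbol in RefSeq (GRCm38.p6) for 24 of the 32 members, while Vps37a, Vps37b, Vps28, Snf8, Chmp1b, Chmp4c, Chmp6 and Chmp7 had no match in the set of windows used. The 4 printed below belong to Vps37d and to the 3 members with the largest fold changes between rd10 and W1 to W3 among those with a match, Vps37c, Stam2 and Mvb12b, and capitals mark CpG dinucleotides. They lie at chr5:135078217-135078516 (minus strand), chr19:10688485-10688784 (plus strand, the upstream of 2 annotated starts), chr2:52742100-52742399 (minus strand) and chr2:33887897-33888196 (minus strand), each written 5′ to 3′ along the gene.
Vps37d: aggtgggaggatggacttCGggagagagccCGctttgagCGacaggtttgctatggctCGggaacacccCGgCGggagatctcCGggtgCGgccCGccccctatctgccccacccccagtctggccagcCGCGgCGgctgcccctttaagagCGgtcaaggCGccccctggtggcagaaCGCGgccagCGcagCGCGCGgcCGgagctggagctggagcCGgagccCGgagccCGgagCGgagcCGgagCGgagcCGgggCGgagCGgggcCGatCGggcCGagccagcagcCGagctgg
Vps37c: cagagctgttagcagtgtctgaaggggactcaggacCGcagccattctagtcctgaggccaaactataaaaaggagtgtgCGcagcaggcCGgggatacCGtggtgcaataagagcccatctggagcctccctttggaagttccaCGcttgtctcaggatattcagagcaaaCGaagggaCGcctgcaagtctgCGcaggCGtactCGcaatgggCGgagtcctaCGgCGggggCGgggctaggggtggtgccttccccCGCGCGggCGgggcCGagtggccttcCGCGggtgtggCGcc
Stam2: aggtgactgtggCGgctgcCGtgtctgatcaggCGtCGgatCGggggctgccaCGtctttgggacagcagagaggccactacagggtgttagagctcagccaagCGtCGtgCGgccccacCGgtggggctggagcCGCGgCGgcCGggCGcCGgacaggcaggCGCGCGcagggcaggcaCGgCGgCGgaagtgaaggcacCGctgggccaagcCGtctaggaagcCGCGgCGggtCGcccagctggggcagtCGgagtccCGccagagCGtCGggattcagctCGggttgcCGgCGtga
Mvb12b: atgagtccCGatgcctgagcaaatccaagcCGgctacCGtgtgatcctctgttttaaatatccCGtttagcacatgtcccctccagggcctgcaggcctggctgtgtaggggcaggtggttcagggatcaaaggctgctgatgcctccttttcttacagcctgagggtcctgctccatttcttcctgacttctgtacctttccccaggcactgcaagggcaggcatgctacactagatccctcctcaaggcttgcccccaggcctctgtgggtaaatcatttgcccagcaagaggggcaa

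The Vps37d window had a GC content of 74.3% and 34 CpG dinucleotides, more than in 92.3% of the 32851 promoters of the same length, whose median was 7. Stam2 had 35 and Vps37c 22, and Mvb12b only 4. The letters TAATCC, the core recognised by the photoreceptor homeodomain factor CRX, were searched on both strands and were present in the window of Chmp2a and in the downstream window of Vps37c, that is in 2 of the 26 member windows (7.69%) and in 7.06% of all windows. None of the 4 printed windows held them. The half-site TGACGT of the cyclic AMP response element was present on either strand in 5 member windows (19.2%), those of Vps4b, Usp8, Ubap1, Chmp2a and Ist1, against 7.51% of all windows. CACGTG, the E-box, was present in 1, that of Pdcd6ip, against 7.15%. These are matches of letters only. TGACGT and CACGTG each hold a CpG, and most member windows hold more CpG than the median of 7 over all windows. The shares were not matched for CpG count.

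The 4 Vps37 paralogs are alternative subunits of ESCRT-I, which joins 1 of them to TSG101, VPS28 and an MVB12 or UBAP1 subunit. Vps37a stood at 235, 240 and 242 CPM in W1 to W3, at 108, 115 and 145 in D1 to D3, and at 102, 124 and 131 in H1 to H3. The library labelled WT W4 stood at 104. All 6 rd10 libraries lay below W1 to W3, and W4 lay among the rd10 libraries.

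Vps37c measured 70.6, 74.8 and 63.8 CPM in W1 to W3, at 33.1, 33.3 and 37.1 in the rd10 DMSO libraries, and at 31.4, 40.0 and 35.6 with halofantrine, with 31.5 in W4. Its rd10 DMSO mean was 49.5% of the mean of W1 to W3. Vps37b measured 33.9, 38.4 and 35.1 CPM in W1 to W3, at 22.4, 26.5 and 19.6 in D1 to D3, and at 28.5, 31.4 and 31.7 in H1 to H3, with 21.2 in W4. The halofantrine libraries of Vps37b thus lay between the other groups, above every rd10 DMSO library and below W1 to W3.

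Vps37d, the least abundant listed member, measured 6.31, 7.46 and 6.42 CPM in W1 to W3 and 7.35 in W4. It was at 8.19, 7.38 and 4.98 in D1 to D3 and at 11.1, 12.2 and 10.5 in H1 to H3. The 3 halofantrine libraries were the highest of all 10, and the WT and rd10 DMSO libraries overlapped.

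**Figure D1:**
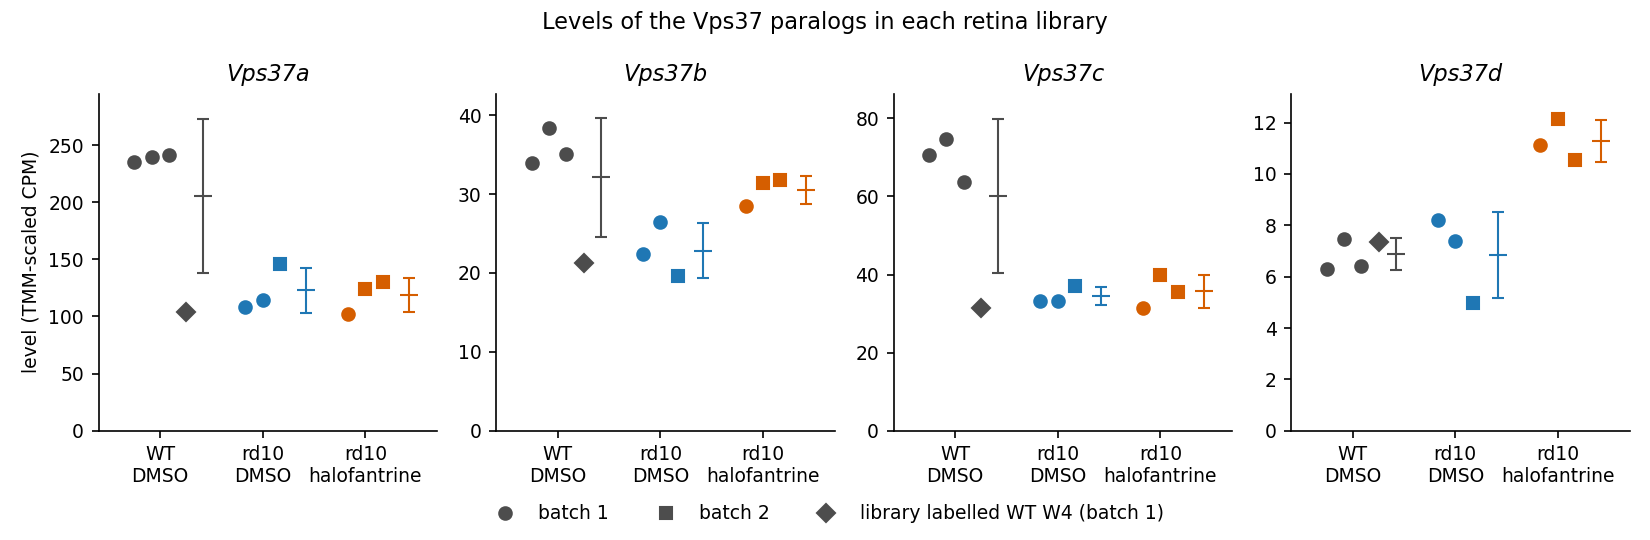
Level of each Vps37 paralog (y axis, TMM-scaled CPM from 0) in every library by group, with the group mean and SD beside the points (n = 4 WT, 3 rd10 DMSO, 3 rd10 halofantrine; circles batch 1, squares batch 2, diamond the library labelled WT W4). Vps37a, Vps37b and Vps37c are high in 3 WT libraries and low in W4 and rd10 DMSO. Vps37d overlaps between WT and rd10 DMSO, at 4.98 (D3) to 8.19 CPM (D1), and is at 10.5 to 12.2 CPM with halofantrine.

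Levels can be compared between the paralogs per transcript length. In W1 to W3 the mean levels were 37.4 CPM per kb for Vps37a, 27.1 for Vps37c, 14.4 for Vps37b and 4.37 for Vps37d. In rd10 DMSO the same order held, with 19.3, 13.4, 9.15 and 4.45 CPM per kb. Of the summed level per kb of the 4 paralogs, Vps37d made up 5.00%, 5.58% and 5.15% in W1 to W3, 12.1%, 10.3% and 6.70% in D1 to D3, and 15.4%, 14.2% and 12.7% in H1 to H3, with 11.4% in W4. The length of Vps37a covers only the annotated transcript that holds 75.4% of its counts. Transcript Vps37d-201 held 93.6% to 100% of the Vps37d counts and Vps37b-201 held 95.5% to 100% of those of Vps37b in each library. For Vps37c, transcript Vps37c-201 held 44.8% to 51.5% in W1 to W3, 73.6% in W4, 76.5%, 70.7% and 48.6% in D1 to D3 and 63.6%, 51.2% and 60.2% in H1 to H3, so that the shares in rd10 reached down into the WT range.

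Between rd10 DMSO and all 4 libraries labelled WT, edgeR's quasi-likelihood test called 0 of the 31 members and 0 of 11698 genes (0.0%) at an adjusted p under 0.05. At an unadjusted p under 0.05, 8 members (25.8%) and 26.6% of all genes passed. DESeq2 called 0 members beside 5.04% of all genes, and limma-voom called 0 beside 0.0%. Without the library labelled WT W4, edgeR called 15 of 31 members (48.4%) beside 62.2% of all 11696 genes tested. Of these members, 12 were lower in rd10 (38.7% of members, 29.9% of all genes) and 3 were higher (9.68% of members, 32.3% of all genes). DESeq2 without W4 also called 12 lower and 3 higher, beside 62.7% of all genes. The median log2 fold change of the members was -0.14, beside -0.01 over all genes tested. In batch 1 alone without W4, 13 members were lower, now with Usp8, and 4 higher, now with Hgs, beside 72.3% of genes called.

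The scale of the libraries bears on this split. With library size alone in place of TMM scaling, and without W4, the median over all genes moved to a log2 fold change of 0.19, and 6 members were called lower and 11 higher, beside 17.4% and 46.2% of all genes. Stam2, Vps37a, Vps37b, Vps37c, Mvb12a and Vps36 were called lower under both scalings, and Mvb12b, Chmp2b and Pdcd6ip were called higher under both. The other 6 members called lower with TMM scaling (Tsg101, Ubap1, Chmp1b, Chmp2a, Chmp5 and Ist1) had log2 fold changes of -0.23 (Tsg101) to -0.04 (Chmp1b) under library size alone without W4 and were not called. The other 8 members called higher with library size alone were Stam, Stambp, Vps25, Chmp1a, Chmp3, Chmp4b, Vps4a and Vps4b. With the GC offset in place, Vps28, Snf8, Chmp6 and Vta1 were also called lower and Chmp1b was not called, and 67.0% of all genes were called. The calls named below are those with TMM scaling and no offset.

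Within ESCRT-0, which binds ubiquitinated cargo first, Stam2 fell and its paralog Stam did not pass the test. Stam2 measured 113, 110 and 114 CPM in W1 to W3, 56.7, 59.6 and 61.9 in D1 to D3 and 56.7, 63.2 and 56.8 in H1 to H3, with 59.5 in W4. Without W4 its log2 fold change was -0.91 ± 0.06 (SE, adjusted p 2.6e-05 by edgeR), and with all 4 WT libraries it was -0.74 ± 0.23 (adjusted p 0.187). The rd10 DMSO mean was 52.8% of the mean of W1 to W3, and no rd10 library overlapped W1 to W3. Stam, by contrast, measured 76.99, 75.1 and 78.8 CPM in W1 to W3 and 76.4, 72.7 and 81.5 in D1 to D3, a log2 fold change of 0.01 ± 0.06 (adjusted p 0.919). Per kb, Stam was at 0.862 to 0.880 times the level of Stam2 in W1 to W3 and at 1.42 to 1.71 times that level in the rd10 libraries, with 1.57 in W4. Hgs, the ubiquitin-binding scaffold of ESCRT-0, was at 67.0 to 70.8 CPM in W1 to W3 and at 83.2, 81.0 and 52.1 in D1 to D3, and D3 alone lay below WT.

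Of the 9 ESCRT-I genes, 7 were called without W4, beside the 62.2% of all genes called in that fit. Without W4, the log2 fold changes of rd10 DMSO against WT were -0.95 ± 0.11 for Vps37a (adjusted p 0.000266), -1.01 ± 0.08 for Vps37c (6.51e-05) and -0.63 ± 0.12 for Vps37b (0.00258) by edgeR. With all WT libraries they were -0.74 ± 0.30, -0.80 ± 0.28 and -0.49 ± 0.21, with adjusted p from 0.187 to 0.188. Within batch 1 and without W4 they were -1.09, -1.06 and -0.54. For Vps37d the log2 fold change was 0.05 ± 0.21 (adjusted p 0.853) without W4 and -0.01 ± 0.22 with all WT libraries. The log2 level of Vps37d minus the mean of its 3 paralogs was -3.69, -3.55 and -3.65 in W1 to W3, -2.47 in W4, -2.39, -2.65 and -3.23 in D1 to D3 and -2.01, -2.14 and -2.32 in H1 to H3, with no overlap between rd10 and W1 to W3. That difference between paralogs is a description and was not tested.

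Tsg101, the subunit that binds ubiquitinated cargo and partner proteins, measured 102, 102 and 104 CPM in W1 to W3, 66.9, 66.7 and 93.1 in D1 to D3 and 67.2, 80.7 and 69.0 in H1 to H3, with 63.8 in W4. Library D3 of batch 2 lay nearer to WT than to D1 and D2. The log2 fold change was -0.44 ± 0.13 (adjusted p 0.0213) without W4, -0.61 within batch 1 and without W4, and -0.30 ± 0.21 (adjusted p 0.317) with all 4 WT libraries.

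The MVB12 subunits, which stabilise the complex and bind ubiquitin, moved in opposite directions. Mvb12a measured 24.2, 21.2 and 21.8 CPM in W1 to W3 and at 16.0, 14.7 and 16.2 in D1 to D3, with 13.6 in W4 and 15.8, 19.7 and 16.4 in H1 to H3. Mvb12b was at 70.6, 69.2 and 72.5 in W1 to W3 and at 122, 109 and 87.4 in D1 to D3, with 120 in W4 and 117, 102 and 96.2 in H1 to H3. Neither gene's rd10 libraries overlapped W1 to W3. Without W4 the log2 fold changes were -0.51 ± 0.09 (adjusted p 0.00165) for Mvb12a and 0.59 ± 0.11 (adjusted p 0.00275) for Mvb12b by edgeR. With W4 they were -0.37 ± 0.20 (adjusted p 0.221) and 0.35 ± 0.22 (adjusted p 0.272). Per kb, Mvb12b was at 0.586 to 0.669 times the level of Mvb12a in W1 to W3 and at 1.04 to 1.53 times that level in the rd10 libraries, with 1.77 in W4. Ubap1, the subunit that can take the place of MVB12, went from 67.8, 71.5 and 68.8 CPM in W1 to W3 to 57.2, 52.9 and 58.1 in D1 to D3, with 56.5 in W4 and 58.6, 60.3 and 57.6 in H1 to H3 (log2 fold change -0.30 ± 0.06, adjusted p 0.00446 without W4, and -0.24 ± 0.10, adjusted p 0.188 with it). Vps28, the subunit that links ESCRT-I to ESCRT-II, had a log2 fold change of -0.15 ± 0.06 and was not called (adjusted p 0.0635).

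Of the 3 ESCRT-II genes, Vps36, which binds ubiquitin and lipid, was called without W4. It measured 52.8, 52.5 and 52.0 CPM in W1 to W3, 35.4, 35.9 and 42.8 in D1 to D3 and 35.6, 38.0 and 39.2 in H1 to H3, with 39.2 in W4. The log2 fold change without W4 was -0.46 ± 0.09 (adjusted p 0.00272), and with it -0.37 ± 0.14 (adjusted p 0.187). Snf8 and Vps25, the other subunits of the complex, had log2 fold changes of -0.17 ± 0.07 and 0.05 ± 0.07 without W4 and were not called with TMM scaling.

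ESCRT-III subunits polymerise into the filament that narrows the vesicle neck, and 5 of the 10 listed were called without W4, beside 62.2% of all genes. Chmp2b, mutated in a form of human frontotemporal dementia, was higher, at 27.6, 28.0 and 26.8 CPM in D1 to D3 against 22.4, 22.8 and 18.4 in W1 to W3, with 26.7 in W4 and 26.5, 29.6 and 26.9 in H1 to H3 (log2 fold change 0.38 ± 0.10, adjusted p 0.0106 without W4, and 0.28 ± 0.13, adjusted p 0.192 with it). Ist1, a regulator of VPS4 recruitment and the listed member with the highest mean CPM over the 10 libraries, was lower, at 170, 178 and 208 CPM in D1 to D3 against 240, 239 and 231 in W1 to W3, with 173 in W4 and 175, 199 and 192 in H1 to H3 (-0.34 ± 0.08, adjusted p 0.00953 without W4, and -0.25 ± 0.15, adjusted p 0.244 with it). Its retained-intron transcript Ist1-204 held 56.3% to 57.5% of its counts in W1 to W3, 46.7% to 49.4% in D1 to D3, 48.9% to 51.4% in H1 to H3 and 47.7% in W4, so the rd10 shares did not overlap those of W1 to W3.

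Chmp2a measured 63.4, 68.4 and 64.6 CPM in W1 to W3 and 55.8, 53.3 and 55.2 in D1 to D3, with 58.3 in W4 and 56.1, 54.7 and 57.4 in H1 to H3. Chmp5 was at 63.1, 63.8 and 67.5 in W1 to W3 and 57.4, 54.6 and 47.9 in D1 to D3, with 62.2 in W4 and 56.4, 53.8 and 52.0 in H1 to H3. Chmp1b was at 28.5, 29.5 and 27.9 in W1 to W3 and 25.2, 22.98 and 23.99 in D1 to D3, with 23.2 in W4 and 21.5, 25.1 and 23.9 in H1 to H3. These 3 filament subunits had log2 fold changes of -0.25, -0.27 and -0.24 without W4 and of -0.22, -0.27 and -0.18 with it, and Chmp5 was the called member at which W4 lay nearer to W1 to W3 than to rd10 DMSO. Chmp1b has a near-copy, Chmp1b2, and its counts are uncertain to that extent. Chmp1a, Chmp3, Chmp4b, Chmp6 and Chmp7 were not called without W4 under TMM scaling, with log2 fold changes from -0.18 to 0.11.

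In the VPS4 group edgeR with TMM scaling called 0 of 3 genes without W4, beside 62.2% of all genes, while Vps4a and Vps4b were called higher with library size alone and Vta1 lower with the GC offset. Vps4a and Vps4b, the ATPases that take the filament apart, had log2 fold changes of 0.02 ± 0.07 and 0.06 ± 0.07, and their activator Vta1 had -0.14 ± 0.06 (adjusted p 0.0752). Among the accessory genes, Pdcd6ip, which encodes ALIX, a bridge from cargo to ESCRT-III, was higher in rd10. It was at 92.0, 94.1 and 80.4 CPM in D1 to D3 and 87.3, 84.8 and 89.7 in H1 to H3, against 69.0, 62.7 and 73.0 in W1 to W3 and 85.0 in W4 (log2 fold change 0.39 ± 0.08, adjusted p 0.00493 without W4, and 0.29 ± 0.12, adjusted p 0.187 with it). The deubiquitinases Usp8 and Stambp, which remove ubiquitin from the cargo, were not called with TMM scaling in the fit of both batches without W4 (-0.07 ± 0.09 and 0.12 ± 0.08). In batch 1 alone without W4, Usp8 was called lower.

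**Figure D2:**
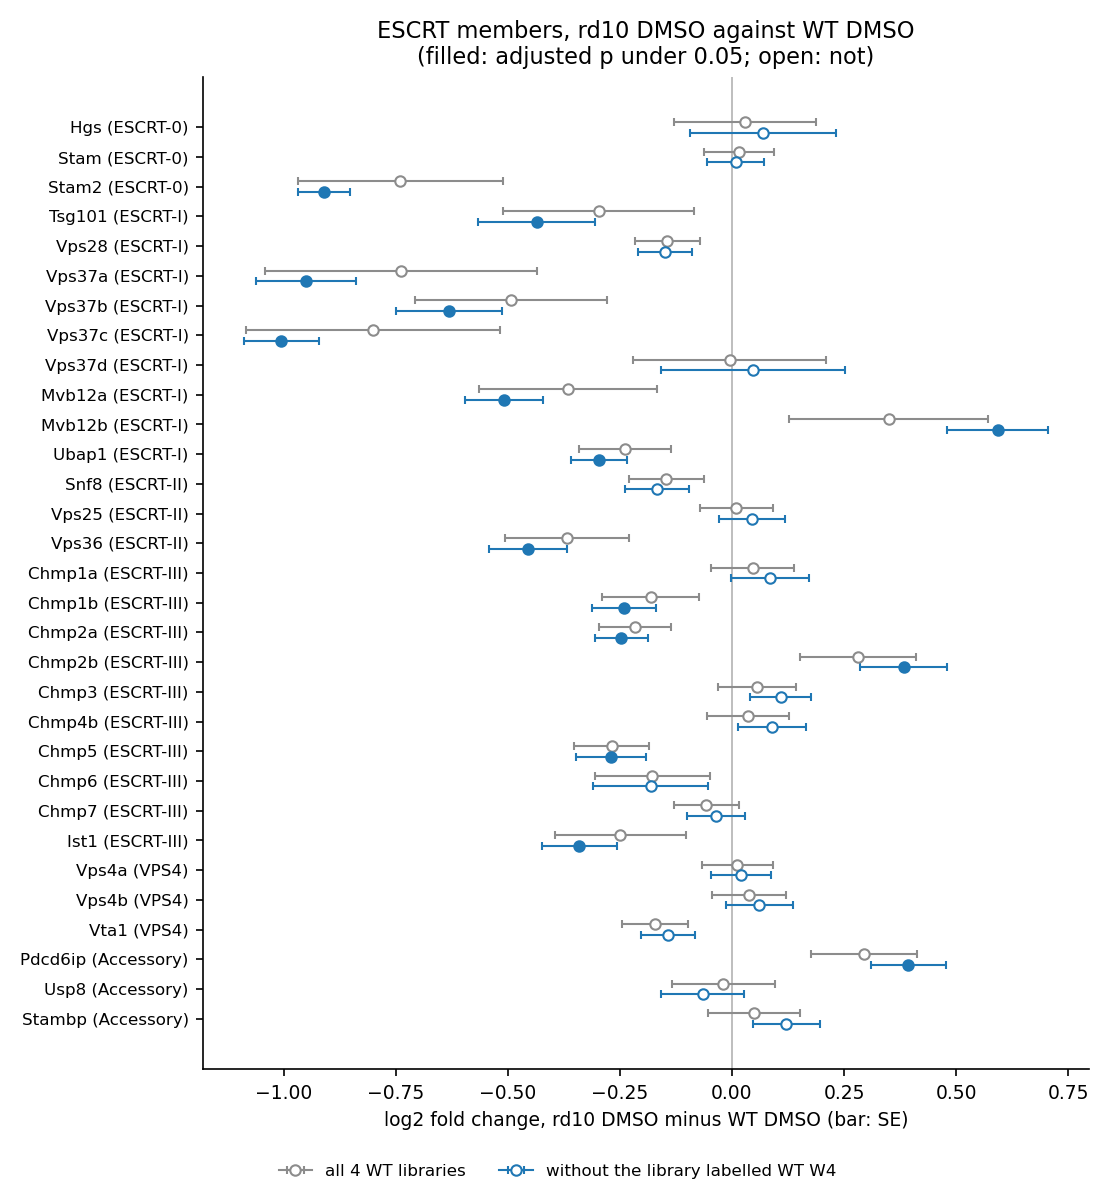
Log2 fold change of each of the 31 listed members (x axis, bars SE) in rd10 DMSO against WT DMSO, by role, with all 4 WT libraries (grey, n = 4 against 3) and without the library labelled WT W4 (blue, n = 3 against 3). Filled points mark an adjusted p under 0.05, which 15 members reach without W4 and 0 with it, and without W4 Vps37d sits at 0.05, to the right of its 3 paralogs at -0.95, -0.63 and -1.01.

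Setting aside W4, 15 of 31 members had all 6 rd10 libraries below W1 to W3 (48.4% of members, 32.4% of all genes) and 3 had all of them above (9.68% of members, 31.4% of all genes). These counts rest on TMM-scaled levels. Of the 15, Vps28, Snf8 and Vta1 had rd10 DMSO log2 fold changes of 0.056, 0.039 and 0.063 with library size alone without W4. For 24 of the 31 members W4 lay nearer to the rd10 DMSO mean than to the mean of W1 to W3, and this held for 14 of the 15 called members. No such share was computed over all genes. Where the groups barely differed, as for Stam, nearness carries little meaning.

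Among the rd10 libraries some of the members called lower followed the rod markers and others did not. Vps37a was lowest, at 102, 104 and 108 CPM, in H1, W4 and D1, where the rod markers summed to 2099, 1591 and 2221 CPM, and among the rd10 libraries it was highest, at 145 CPM, in D3, where they summed to 5738. Tsg101, Ist1 and Vps36 had their highest rd10 levels, 93.1, 208 and 42.8 CPM, in the same library. Vps37b and Chmp5 had their lowest rd10 levels there, 19.6 and 47.9 CPM, against 22.4 to 31.7 and 52.0 to 57.4 in the other rd10 libraries. Stam2 stayed between 56.7 and 63.2 CPM over the same rd10 range of rod markers. The gliosis markers, at 77.9 to 87.1 CPM in W1 to W3 and 650 to 857 in rd10, and the 5 listed of 10 microglia markers, at 23.1 to 30.7 and 107 to 144 CPM, also differed between W1 to W3 and rd10 without overlap. So did the summed markers of bipolar cells (1327 to 1417 CPM in W1 to W3, 2135 to 2615 in rd10), amacrine and ganglion cells (1389 to 1467 and 1886 to 2288) and Müller glia (2916 to 3126 and 4174 to 4955), which were higher in rd10 beside the members that were higher there. The 3 listed endothelial markers summed to 171 to 189 CPM in W1 to W3 and 277 to 473 in rd10, where Kdr made up most of the sum and edgeR called 1 of the 3 without W4. Cone markers overlapped, at 2077 to 2232 and 2059 to 2637 CPM. No listed marker of these 8 lists was at 0 in any library. Pigment epithelium markers summed to 34.1, 30.8 and 161 CPM in W1 to W3 and 109 to 391 in rd10, and 2 of the 4 were called higher in rd10 DMSO without W4. Blood markers summed to 34.2 to 60.3 CPM in W1 to W3 and 11.8 to 96.5 in rd10, and all 3 were called lower in rd10 DMSO without W4. Lens markers summed to 1.21 to 3.97 and 0.1797 to 18.6 CPM, with Cryaa at 0 in W4 and H1. Their part in the members' differences was not tested.

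**Figure D3:**
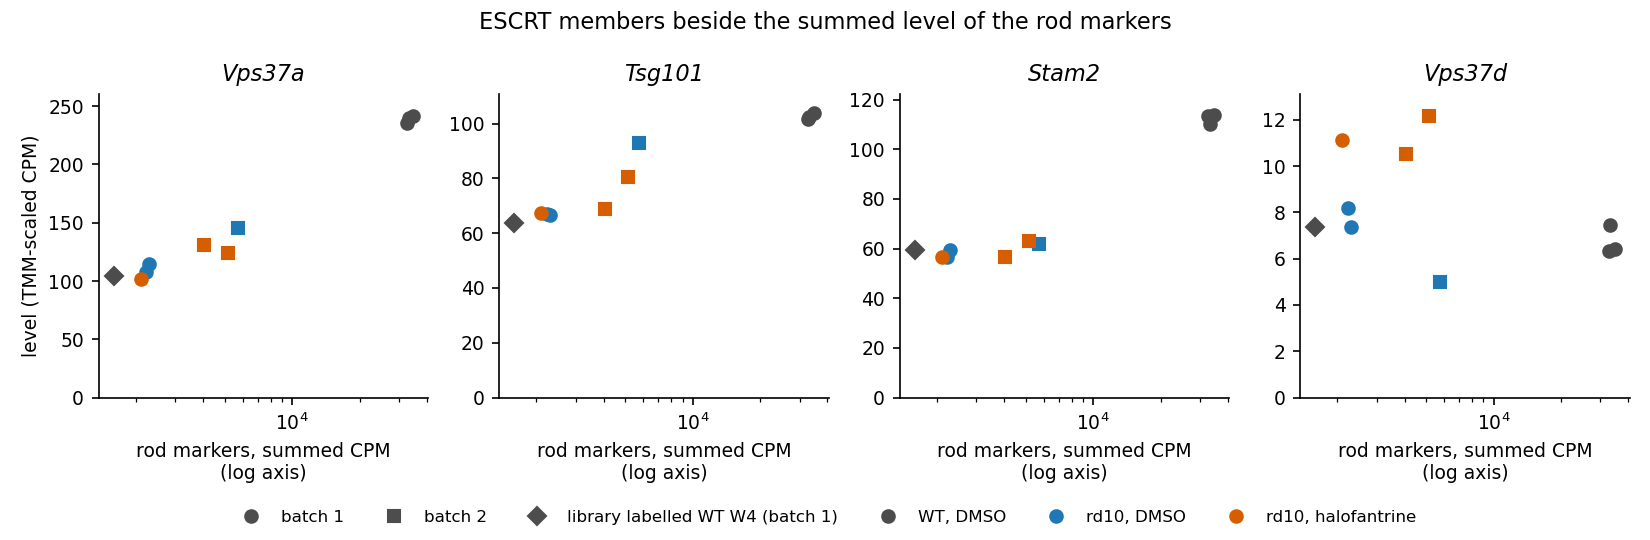
Level of 4 members (y axis, TMM-scaled CPM from 0) against the summed CPM of the 9 rod markers (x axis, log scale) in each library (colour: group; circle: batch 1; square: batch 2; diamond: the library labelled WT W4). Vps37a and Tsg101 are highest among the rd10 libraries in D3, which has the most rod signal of them, Stam2 stays at 56.7 to 63.2 CPM across them, and Vps37d is lowest in D3.

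Halofantrine-injected rd10 retinas were also compared with WT, with the same WT libraries as above. With all 4, edgeR called 0 of 31 members and 1 of 11699 genes (0.00855%), while 9 members (29.0%) and 34.6% of genes passed an unadjusted p under 0.05, and DESeq2 called 5 members beside 19.0% of genes. Without W4 edgeR called 21 members (67.7%) beside 71.9% of genes, 15 lower (36.2% of genes) and 6 higher (35.7% of genes). The 15 members called in rd10 DMSO were among them, and the other 6 were Vps37d (0.74), Hgs (0.25) and Chmp4b (0.19), higher, and Snf8 (-0.19), Usp8 (-0.15) and Stam (-0.13), lower. Vps37d was chosen on these halofantrine libraries, so its place in the count is a description. With library size alone in place of TMM scaling, and without W4, 13 members were called higher and 5 lower, beside 8414 of 11699 genes. Snf8, Usp8 and Stam were called neither in that fit nor by DESeq2 without W4. Whether halofantrine and DMSO differ is the next comparison. The values beside those of rd10 DMSO were -0.93 for Stam2, -1.01 for Vps37a, -0.97 for Vps37c and 0.57 for Mvb12b on the log2 scale, and -0.23 for Vps37b, all without W4. With W4 they were -0.75, -0.79, -0.75, 0.34 and -0.07, and 0.71 ± 0.14 for Vps37d (adjusted p 0.135). Against W1 to W3, Vps37d had a log2 difference of 0.74 ± 0.12 with halofantrine and 0.05 ± 0.21 with DMSO.

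For halofantrine against DMSO within rd10, Vps37d had been picked on this contrast, so its values are a description. Its mean was 11.3 ± 0.81 CPM (SD, n = 3) with halofantrine and 6.85 ± 1.67 CPM with DMSO, a fitted log2 difference of 0.70 ± 0.19 (SE). In batch 1 the difference was 0.51 (H1 against D1 and D2) and in batch 2 it was 1.17 (H2 and H3 against D3), where D3 was the library with the lowest Vps37d level of all 10. Without D3 the fitted difference remained positive, as it did under each alternative run, which gave 0.29 to 0.85. The transcripts of Vps37d have a GC content of 65.3%, higher than 99.8% of genes with a value, and an offset for the libraries' trends with GC content brought the difference to 0.32 ± 0.11. Markers of other cells moved between the same libraries. The gliosis markers summed to 752 to 857 CPM with DMSO and 650 to 730 with halofantrine, where Gfap and Serpina3n made up most of the sum, while their mean log2 levels overlapped, at 5.99, 6.11 and 6.23 in D1 to D3 and 6.02, 6.19 and 6.15 in H1 to H3. The pigment epithelium markers summed to 391, 117 and 383 CPM in D1 to D3 and 169, 109 and 124 in H1 to H3. Blood and lens markers were highest in H2, at 96.5 and 18.6 CPM. Their part in the halofantrine differences was not tested.

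Among the 30 other members, edgeR called 0 at an adjusted p under 0.05, as it did for all 11692 genes (0.0%), and DESeq2 called 0 members beside 0.0257% of genes. At an unadjusted p under 0.05, 2 of the 30 passed, Vps37b and Chmp7, beside 4.76% of all genes. The 3 halofantrine libraries lay above all 3 rd10 DMSO libraries for these 2 of the 30 (6.91% of all genes) and below them for Stam and Stambp (6.18% of all genes). These counts are near the shares of all genes. With a batch term 6 of the 30 had an unadjusted p under 0.05 (Hgs, Stam, Vps37a, Vps37b, Chmp7 and Usp8), beside 16.6% of all genes, and 0 were called after adjustment (0.0% of all genes).

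Vps37b was at 30.5 ± 1.79 CPM (SD, n = 3) with halofantrine and 22.8 ± 3.48 with DMSO, a log2 difference of 0.41 ± 0.12 (unadjusted p 0.00946, adjusted p 0.883 by edgeR). It was 0.22 in batch 1 and 0.69 in batch 2, and 0.30 ± 0.10 with the GC offset (its transcripts have a GC content of 58.0%). In GENCODE M21 the exons of Vps37b overlap those of Hip1r on the opposite strand by 918 bases, the libraries were strand-specific, and whether the strand was used in the quantification was not given in the sources used here. Chmp7, which starts ESCRT-III assembly at the reforming nuclear envelope, was at 59.0, 63.1 and 62.0 CPM in H1 to H3 against 55.5, 55.2 and 54.9 in D1 to D3 (0.15 ± 0.06, unadjusted p 0.0285, adjusted p 0.883), and at 53.0 to 60.0 CPM in the libraries labelled WT.

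Stam was at 68.1, 70.8 and 71.7 CPM with halofantrine and 76.4, 72.7 and 81.5 with DMSO, a log2 difference of -0.13 ± 0.06 (adjusted p 0.883). Stambp, a deubiquitinase that binds STAM, was at 26.4, 25.6 and 25.5 CPM against 27.0, 27.0 and 29.2 (-0.10 ± 0.07, adjusted p 0.883). In this fit, which had no batch term, both were smaller in size than the differences of Vps37b and Vps37d and larger than those of Vps37a and Vps37c. With a batch term the differences were -0.16 for Stam, -0.11 for Stambp and -0.16 for Vps37a.

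The log2 differences of Vps37a and Vps37c were -0.05 ± 0.14 and 0.05 ± 0.10, and the halofantrine libraries of both overlapped those with DMSO. Vps37a moved with the fit, to -0.16 ± 0.06 with a batch term (adjusted p 0.269), with -0.13 in batch 1 and -0.20 in batch 2. Tsg101 and Vps28, the constant partners of the VPS37 proteins in ESCRT-I, had -0.06 ± 0.14 and 0.07 ± 0.06, and Mvb12a, Mvb12b and Ubap1 had 0.15 ± 0.11, -0.01 ± 0.13 and 0.07 ± 0.06. The 26 members whose libraries overlapped ranged from -0.09 to 0.19, and the median of all 31 was 0.01, beside -0.0045 for all genes. The largest of the 26 was Hgs, at 87.9, 82.1 and 78.0 CPM with halofantrine, where its DMSO libraries were at 83.2, 81.0 and 52.1. D3 alone was low, and the differences were 0.10 in batch 1 and 0.62 in batch 2, with 0.35 ± 0.11 for the fit with a batch term (adjusted p 0.269).

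**Figure D4:**
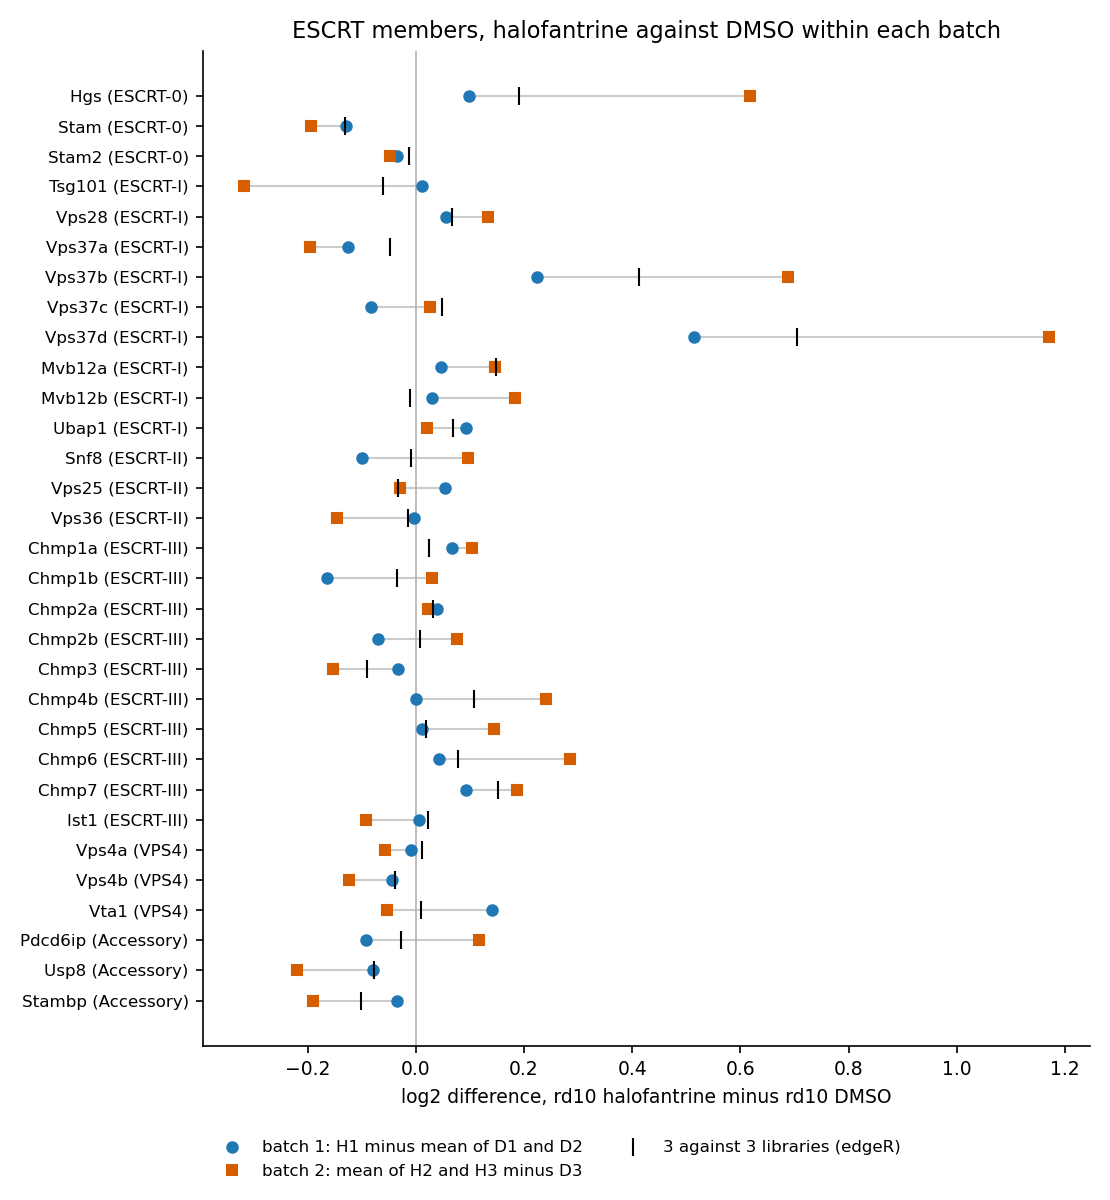
Log2 difference between rd10 halofantrine and rd10 DMSO libraries (x axis) for each listed member by role, within batch 1 (circles, 1 against 2 libraries), within batch 2 (squares, 2 against 1) and fitted over 3 against 3 libraries (ticks). Vps37d lies farthest to the right in batch 1 (0.51) and batch 2 (1.17), followed in the fit by Vps37b at 0.41, and most other members lie near 0.

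The batches differed in the rd10 retinas as well. With treatment as a covariate, edgeR called 1 member, Vps37a, beside 4.63% of all genes (542 of 11698). Vps37a was higher in batch 2 by a log2 difference of 0.35 ± 0.06 (adjusted p 0.0221), and its batch 2 libraries, at 124 to 145 CPM, lay above its batch 1 rd10 libraries, at 102 to 115 CPM. That call was lost when any 1 of D1, D2, D3, H2 or H3 was left out, leaving 0 members, and without H1 there were 6, beside 22.5% of genes. DESeq2 called the same 6 members, Vps37a, Tsg101, Ist1 and Usp8 higher and Hgs and Mvb12b lower in batch 2, beside 12.1% of genes. For Vps37d the batch difference was -0.27 ± 0.18 (adjusted p 0.346). A test of whether the halofantrine difference itself differed between batches rests on H1 alone for halofantrine in batch 1 and D3 alone for DMSO in batch 2, which are assumed to vary like the others, with 2 residual degrees of freedom. It called 0 members beside 0.419% of genes, with 3 members (Hgs, Vps37b and Vps37d) and 18.4% of genes at an unadjusted p under 0.05, and its lowest adjusted p among members was 0.0761, for Hgs, in which D3 alone was low.

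Genes that work beside ESCRT were examined in 2 further lists. Of 22 ESCRT partners, 19 were listed, and without W4 rd10 DMSO differed from WT in 8 of them, 4 higher and 4 lower, beside 62.2% of all genes (32.3% higher and 29.9% lower), with a median log2 fold change of 0.13. The 4 with the smallest p were Ubap1l, a UBAP1 relative, at -1.14 ± 0.10 (adjusted p 8.02e-05), Sdcbp (syntenin, which binds ALIX in exosome formation) at 0.81 ± 0.09 (0.000213), Cc2d1b, a CHMP4 regulator, at -0.57 ± 0.06 (0.000229) and Tom1l1, an adaptor that binds ubiquitin, at 1.36 ± 0.18 (0.000499). Of the 17 genes of endosomal tethers, Rab5, Rab7 and retromer, 6 differed in the same fit, 4 higher and 2 lower, with a median of 0.04. Neither list had a larger called share than all genes. Rab7, the small GTPase of late endosomes, was at 0.37 ± 0.06 (adjusted p 0.00104), Vps18, a shared tether subunit, at -0.48 ± 0.10 (0.00495), Rab5b, of early endosomes, at 0.23 ± 0.05 (0.00678) and Vps33a, a tether subunit that binds SNARE proteins, at 0.20 ± 0.05 (0.0131). With all 4 WT libraries edgeR called 0 of the 36 genes in these lists, and 5 partners and 0 of the tether list had an unadjusted p under 0.05, beside 26.6% of all genes. Halofantrine against DMSO also gave 0 calls in both lists (0.0% of all genes), with 1 partner and 0 tether genes at an unadjusted p under 0.05, beside 4.76% of all genes, and medians of -0.05 and -0.0036 on the log2 scale.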

How the data were processed

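The submitters' processing notes and the study's methods name kallisto, tximport, the GRCm39 build and an Ensembl transcriptome. The libraries were polyA-selected and strand-specific, and whether the strand was used in the quantification is not given in the sources used here. The deposited gene and transcript values are estimated counts, unscaled. The authors' scaled CPM, a signal made by dividing each library's counts by 1 factor, was used only to check levels, which differed by at most 0.947% in a library's median. The authors' fold changes and p-values for halofantrine were not used.

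Estimated counts were rounded, and levels are CPM with TMM factors over 10 libraries (0.889 to 0.909 in W1 to W3, 1.04 to 1.06 in the others). Groups came from the labels. Each comparison was fitted on the groups compared with edgeR 4.0.16 (quasi-likelihood, filterByExpr, R 4.3.3) and Benjamini-Hochberg adjustment over all genes tested (threshold 0.05), the batch comparison with treatment as a covariate. Within-batch differences are of mean log2 CPM (prior count 2). The alternatives were DESeq2 1.42.0, limma 3.58.1 (voom), other scalings, no filter, GC offsets (lowess, span 0.3), batch terms and leaving out each library, and 6 further ones chosen after seeing the data (library size alone, 4 fits without W4, and the GC offset with a batch term). The fits were tested on simulated data. No libraries of a group were copies (chi-square per gene at least 4.48).

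Of 11702 gene IDs, 11492 had a symbol. GC content and lengths came from GENCODE M21 transcripts matched by ID (98.1% of genes), and promoters from RefSeq on GRCm38.p6, another build than that of the files. Library values are printed for the Vps37 paralogs, members that edgeR called in rd10 DMSO against WT with or without W4, members whose halofantrine and DMSO libraries did not overlap, and members that edgeR called between batches. Partner genes are named where called, at most 4 a list. 1 gene of the rod marker list is not reported here and is left out of its sums. The members, lists and tests were chosen with earlier results of these data known.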

Additional observations from a re-analysis of the deposited data

Results flagged for a closer look

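In the group labelled WT, 1 library stood apart for 7 of the 31 members by a gap test on the 4 CPM values (the gap to the nearest library over the group's range, set against Dixon's 5% critical value for 4 samples), and in all 7 it was the library labelled WT W4. The gap ratios were 0.954 for Vps37a, 0.952 for Tsg101, 0.9401 for Vps36, 0.935 for Mvb12b, 0.934 for Stam2, 0.879 for Vta1 and 0.866 for Ist1. Chance gives such a gap in about 1 in 20 groups, or 1.55 of 31, and the members are measured in the same 4 libraries. The gap test was not run over all genes, so the count is no result about the members. Over all genes, W4 differed from W1 to W3 by a chi-square per gene of 421 to 431, against 4.48 to 10.2 among W1 to W3. For Vta1 W4 was the highest of the 4 at 36.03 CPM, where W1 to W3 lay between 34.2 and 34.4, for Mvb12b it was the highest as well, and for the other 5 it was the lowest.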

How the results depend on the processing

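For rd10 DMSO against WT the count of called members stayed at 0 in each alternative that kept the library labelled WT W4. Without W4 it was 15, with 15 by DESeq2, 18 with the GC offset, 17 in batch 1 alone and 17 with library size alone, so leaving out 1 library gave 0 to 15. For rd10 halofantrine against WT, DESeq2 called 5, and leaving out 1 library gave 0 to 21. Without W4 there were 21 by edgeR, 18 by DESeq2 (beside 8171 of 11699 genes) and 18 with library size alone (beside 8414 of 11699 genes). Those with library size alone were 13 higher and 5 lower. For halofantrine against DMSO the count was 0 in each of the 15 alternatives run. For batch 2 against batch 1, DESeq2 called 6, the fit without the treatment term 0, and leaving out 1 library gave 0 to 6 (6 without H1, 0 without any other). With all libraries kept, limma-voom, no filter, DESeq2 size factors and library size alone left each count as it was.

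For rd10 DMSO against WT, log2 fold changes of 9 of the 25 members given in the text changed sign in some alternative. Vps37d became 0.015 by DESeq2, 0.0085 with DESeq2 size factors, 0.036 by limma-voom, 0.15 with library size alone and 0.18 in batch 1 alone, without W4 it was 0.048, 0.052 by DESeq2, 0.22 in batch 1 alone and 0.25 with library size alone, and leaving out 1 library gave -0.14 (D1) to 0.18 (D3), with 0.033 for W2. With library size alone, Vps28 became 0.014, Snf8 0.013 and Usp8 0.14, and with W4 left out as well Vps28 became 0.056, Snf8 0.039, Vta1 0.063 and Usp8 0.14. With the GC offset Vps25 became -0.034 and Vps4a -0.034, and without W4 -0.022 and -0.049. In batch 1 alone Stam became -0.022, Vps4a -0.035 and Vps4b -0.018, and without W4 -0.038, -0.035 and -0.0021. Leaving out 1 library gave -0.022 to 0.063 for Stam, -0.044 to 0.051 for Vps25 (-0.011 without W3), -0.035 to 0.058 for Vps4a (-0.0021 without W3), -0.018 to 0.079 for Vps4b and -0.12 to 0.051 for Usp8 (0.010 without W1, 0.030 without D2).

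For halofantrine against DMSO, 5 of 13 members changed sign. Vps37a became 0.031 with the GC offset and 0.048 without H1, leaving out 1 library gave -0.13 (D1) to 0.095 (D3), and with a batch term it was -0.16. Vps37c became -0.068 with the GC offset, -0.029 with a batch term and -0.19 with both, and leaving out 1 library gave -0.042 (H2) to 0.13 (H1). Mvb12b became 0.10 with a batch term, with -0.12 (D3) to 0.10 (D1) when 1 library was left out, Mvb12a became -0.099 with the GC offset and batch term, and Tsg101 ranged from -0.15 (H2) to 0.12 (D3). The cause was not tested. No value of changed sign was called. Of 475 alternative values for rd10 DMSO against WT, 77 were called and 398 were not, and for halofantrine 0 of 195 were called.

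No paired analysis was possible because the replicate numbers only name samples in accession order and each library is another sample. Counting depth limits Vps37d most, at 81 counts or more per library.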
